A study of Mus musculus with 6 samples.

Results

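The 40 genes described here encode the machinery of mitosis, from the kinase Cdk1 and its cyclins through the spindle checkpoint and the kinetochore to the proteins that cut the cell apart. They were chosen by name as genes of cell division, with earlier results of these data known. All 40 were present among the 14492 genes of the deposited table of mouse liver RNA. The libraries came from male C57BL/6J mice aged 8 weeks that received a tail vein injection and, from that day, a high-fat diet for 2 weeks. There were 3 livers labelled as injected with vehicle and 3 labelled as injected with an adenovirus that overexpresses Chrna4. Adenoviruses serve as vectors that carry a gene into hepatocytes, and Chrna4 codes for a subunit of nicotinic acetylcholine receptors. The protocol text speaks of adenovirus for mice in general and does not say what the vehicle contained, and effects of virus and of Chrna4 cannot be told apart here. All mice had the same diet, and no promoter of the vector is named in the labels.

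Mitosis is driven by Cdk1 bound to its cyclins. Many of its proteins, though not all, are made mainly as cells approach and pass through division, and their transcripts serve as markers of dividing cells. The checkpoint holds the chromosomes until each is attached to the spindle, and the anaphase-promoting complex, a ubiquitin ligase, then destroys cyclin B and securin. In the adult liver few cells divide, hepatocytes re-enter the cycle after injury or loss of tissue, and many hepatocytes hold more than the usual set of chromosomes because they replicated DNA without completing division. Many genes of this program share a promoter element called the cell cycle genes homology region (CHR), bound by the MuvB complex, and CCAAT boxes bound by NF-Y.

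Vehicle libraries held 15191611 to 22440334 recovered reads and Chrna4-labelled libraries 14959338 to 17023536. The mouse Chrna4 gene did not bear out the group label. In read counts scaled to the size of the library (CPM) it had 1.70, 4.99 and 3.38 in vehicle and 3.70, 2.17 and 3.82 CPM in the others (log2 fold change 0.0069, limma adjusted p = 0.993). The groups overlapped, so this gene gives no check of the labels, and the labels do not say whether the vector's transcript is counted under it. The authors scaled library totals by factors of 0.853 to 0.922 in vehicle and 1.11 to 1.14 for the Chrna4 label. With plain totals the median of all genes moved up by 0.31 on the log2 scale. Chrna4-labelled replicate 1 and vehicle replicate 1 stood apart from the other libraries of their groups for the mitosis genes, and the results without them are given below.

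Because these genes share a program, the sequences of their promoters come first. The window runs from 250 bases before to 50 bases after the RefSeq start site in GRCm38.p6, and 33 of the 40 genes had an entry. A CHR was searched as TTTGAA or TTCGAA and a CCAAT box as CCAAT, each on both strands. Of the 33 genes, 25 held a CHR in a window and 26 a CCAAT box, and 22 held both. Counted by promoter, a CHR stood in 77.1% of the 35 promoters of these genes and in 19.2% of all 32851 promoters, and a CCAAT box in 80.0% and 37.4%. A CHR that began within 50 bases of the start site was found in 71.4% and 5.31%. The genes were chosen as members of one program, so these shares describe them and are not a test. The promoters of Ccnb2 (chr9:70421505-70421804, minus strand), Cdk1 (chr10:69352863-69353162, minus strand), Cdc20 (chr4:118437294-118437593, minus strand) and Plk1 (chr7:122159185-122159484, plus strand) are printed because they belong to central genes that rose and hold both elements. The promoter of Ccnb1, the gene with the largest ratio of group means below, held 2 CCAAT boxes and 0 CHR matches. It is not printed for that reason. Capitals mark each CHR and CCAAT match on either strand, and the sequences read 5′ to 3′ on the strand of the gene.

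Ccnb2: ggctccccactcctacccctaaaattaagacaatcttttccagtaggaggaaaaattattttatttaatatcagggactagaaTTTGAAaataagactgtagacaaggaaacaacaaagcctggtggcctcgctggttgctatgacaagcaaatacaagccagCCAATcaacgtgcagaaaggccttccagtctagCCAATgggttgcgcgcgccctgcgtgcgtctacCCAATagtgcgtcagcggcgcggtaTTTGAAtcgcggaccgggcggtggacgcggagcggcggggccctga
Cdk1: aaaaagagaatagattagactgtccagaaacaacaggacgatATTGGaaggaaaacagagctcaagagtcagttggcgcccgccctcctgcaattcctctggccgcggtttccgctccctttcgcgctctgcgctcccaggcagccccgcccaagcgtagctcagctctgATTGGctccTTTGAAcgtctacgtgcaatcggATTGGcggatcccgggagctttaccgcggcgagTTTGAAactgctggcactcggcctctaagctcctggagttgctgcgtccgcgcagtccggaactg
Cdc20: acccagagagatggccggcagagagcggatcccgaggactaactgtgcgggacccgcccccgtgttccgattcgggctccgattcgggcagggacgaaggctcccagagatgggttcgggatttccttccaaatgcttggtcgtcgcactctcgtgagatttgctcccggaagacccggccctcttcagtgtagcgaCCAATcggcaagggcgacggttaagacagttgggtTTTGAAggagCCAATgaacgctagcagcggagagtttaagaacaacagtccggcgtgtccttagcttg
Plk1: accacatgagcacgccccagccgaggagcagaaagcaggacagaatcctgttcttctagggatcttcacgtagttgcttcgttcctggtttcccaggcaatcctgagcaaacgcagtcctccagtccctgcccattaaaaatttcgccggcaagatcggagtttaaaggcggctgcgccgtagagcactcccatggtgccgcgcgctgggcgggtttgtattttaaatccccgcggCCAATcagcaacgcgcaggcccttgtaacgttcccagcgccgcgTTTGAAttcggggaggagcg

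The promoters of Cks2 (chr13:51644982-51645281, plus strand), Aurka (chr2:172370521-172370820, minus strand) and Spc25 (chr2:69206164-69206463, minus strand) are set beside them because these 3 genes, chosen after their values were seen, did not pass the test described below. Those of Aurka and Spc25 held both elements near the start site, as the first 4 did. That of Cks2 held 4 CCAAT boxes and no CHR match.

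Cks2: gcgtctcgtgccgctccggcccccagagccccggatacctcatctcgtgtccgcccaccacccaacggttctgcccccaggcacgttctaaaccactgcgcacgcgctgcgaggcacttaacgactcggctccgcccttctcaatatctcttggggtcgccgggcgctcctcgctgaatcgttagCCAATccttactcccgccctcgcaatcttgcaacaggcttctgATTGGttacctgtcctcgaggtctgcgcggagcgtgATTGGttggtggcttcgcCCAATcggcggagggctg
Aurka: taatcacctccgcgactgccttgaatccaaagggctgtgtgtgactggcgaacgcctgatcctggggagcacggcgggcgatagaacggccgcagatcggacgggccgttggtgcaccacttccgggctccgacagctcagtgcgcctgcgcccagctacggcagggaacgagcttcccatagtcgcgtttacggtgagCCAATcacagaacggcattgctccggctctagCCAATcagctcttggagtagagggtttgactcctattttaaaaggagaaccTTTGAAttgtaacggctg
Spc25: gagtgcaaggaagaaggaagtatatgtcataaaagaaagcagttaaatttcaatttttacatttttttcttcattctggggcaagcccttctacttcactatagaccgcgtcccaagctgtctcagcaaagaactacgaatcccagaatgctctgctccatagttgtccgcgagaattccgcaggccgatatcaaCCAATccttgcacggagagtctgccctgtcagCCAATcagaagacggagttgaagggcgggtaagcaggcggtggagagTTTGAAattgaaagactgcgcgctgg

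**Figure D1:**
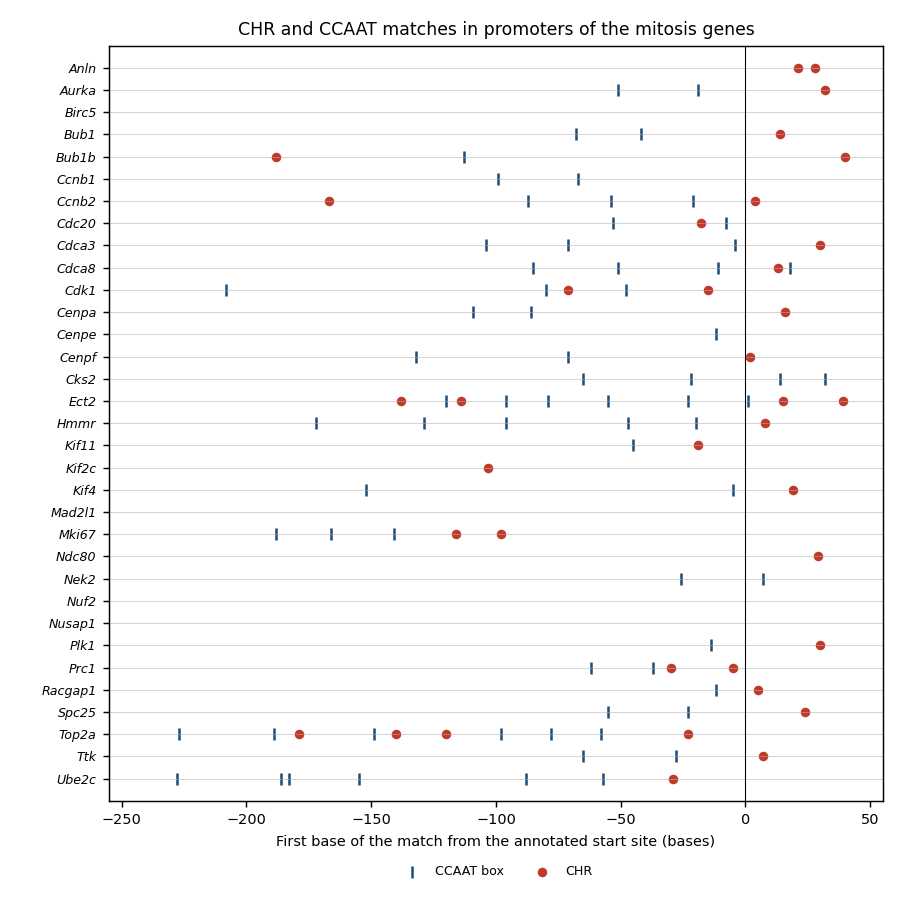
Matches of the CHR (red points) and the CCAAT box (blue bars) in the promoters of the 33 mitosis genes with an entry; the x axis gives the first base of each match from the annotated start site, in bases. Most CHR matches lie within 50 bases of the start site. Most CCAAT boxes begin before the start site and a few after it, as in Cdca8 at 18 bases. In Cdc20 and Cdca8, 1 CCAAT box follows the CHR. Ect2 and Prc1 have 2 annotated starts each, and both are drawn.

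The livers labelled with the Chrna4 adenovirus held more RNA of nearly all these genes. Values are CPM, and fold changes compare Chrna4-labelled with vehicle libraries. The cyclin gene Ccnb1 had the largest ratio of group means, 10.3, followed by the kinase gene Plk1 at 9.57, and the median ratio over the 40 genes was 3.82. Ratios of at least 2 were seen in 35 of the 40 genes (87.5%), against 12.8% of the genes in the table. In 39 of the 40 every Chrna4-labelled value lay above every vehicle value, against 22.2% of the genes in the table. Only Cks2, which encodes a small Cdk-binding protein, had overlapping groups among the 40.

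By limma on log2(CPM + 1), 36 of the genes could be tested at the minimum mean of 1 CPM. Of these 33 were higher at an adjusted p under 0.05 and 0 were lower, against 14.2% higher and 10.3% lower of the 12099 genes tested. No tested gene of the set had a negative log2 fold change, and the median over the 36 was 1.24, against a median over all genes tested of -0.0067. The other 4 genes, Cdc25c, Bub1, Ttk and Ndc80, had lower means. Of the 36, 13 had a vehicle mean under 1 CPM and entered the test through their Chrna4-labelled values, so the count over the 36 is no measure of all 40. With no filter on low values all 40 were tested and 37 were higher and 0 lower (limma), against 13.4% higher and 8.55% lower of 14492 genes. EdgeR's quasi-likelihood test on the recovered reads, also without a filter, gave the same numbers, 37 and 0 (12.6% of all genes higher and 8.48% lower), with a median log2 fold change of 1.89. With a pseudocount of 0.25 in place of 1, 33 of the 36 were higher (13.7% of all genes higher, 10.1% lower). The 1 added before taking logs makes the fold changes by limma smaller for genes as low as these. The genes that did not pass in either fit were Aurka, Cks2 and Spc25. With plain library totals 35 of the 36 were higher (37.3% of all genes, with 2.82% lower), Aurka and Spc25 among them. In whole liver, more dividing cells and more RNA of these genes per cell cannot be told apart.

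**Figure D2:**
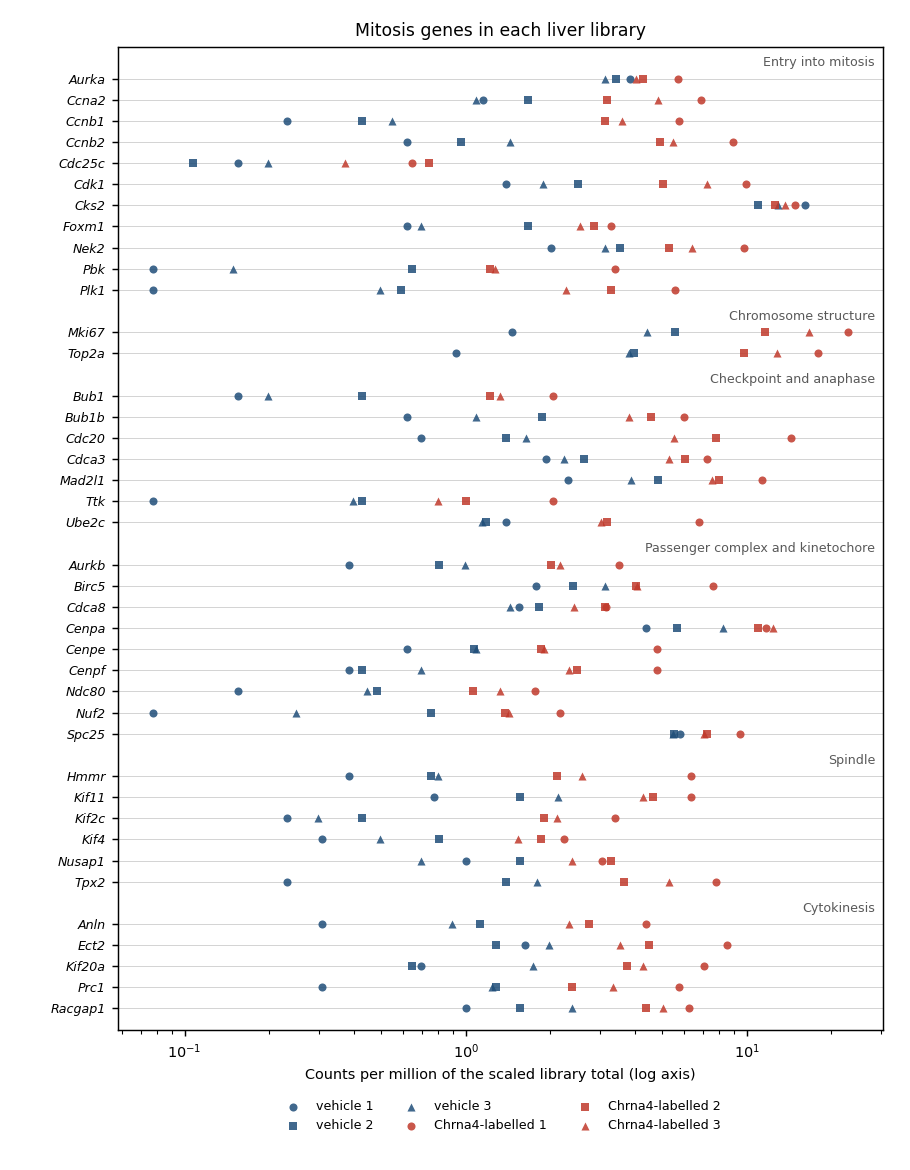
Level of each mitosis gene in each library, in CPM on a log axis; blue marks are the 3 vehicle and red marks the 3 Chrna4-labelled libraries, with 1 symbol per replicate. Red marks lie to the right of all blue marks in every row except that of Cks2, and the red circle of Chrna4-labelled replicate 1 is the highest mark in 36 of 40 rows.

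The largest ratio of means, 10.3 for Ccnb1, and the smallest, 1.03 for Cks2, both belonged to genes of entry into mitosis. Values below are given for replicates 1, 2 and 3 of each group in that order. Ccnb1 encodes cyclin B1, the partner that activates Cdk1 at the start of mitosis (chromosome 13, 100778650 to 100786570 in GRCm38). It stood at 0.231, 0.429 and 0.546 CPM in vehicle libraries, from 3, 8 and 11 reads, and at 5.75, 3.12 and 3.60 CPM in Chrna4-labelled libraries, from 98, 59 and 68 reads. The lowest Chrna4-labelled value was thus several times the highest vehicle value, and the log2 fold change was 1.85 (95% interval 1.35 to 2.36; limma, adjusted p = 0.00132). Ccnb2, its close relative, had 0.617, 0.965 and 1.44 CPM in vehicle and 8.92, 4.92 and 5.46 CPM in Chrna4-labelled libraries (log2 fold change 1.87, limma adjusted p = 0.00173). Ccna2, the cyclin of S and G2 phase, had 1.16, 1.66 and 1.09 CPM against 6.87, 3.18 and 4.82 CPM, and it rose by 1.33 on the log2 scale (limma, adjusted p = 0.00615). All 3 cyclin genes were highest in Chrna4-labelled replicate 1.

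Cdk1, the kinase of mitosis (chromosome 10, 69335146 to 69352938), had 1.39, 2.52 and 1.89 CPM in vehicle and 9.98, 5.03 and 7.21 CPM in Chrna4-labelled libraries. It rose by 1.49 on the log2 scale (95% interval 0.94 to 2.05; limma, adjusted p = 0.00409). Plk1, a kinase that promotes entry, spindle assembly and division (chromosome 7, 122159439 to 122169873), was close to absent from vehicle replicate 1. It had 0.0772, 0.590 and 0.496 CPM in vehicle libraries, which is 1, 11 and 10 reads, and 5.57, 3.28 and 2.28 CPM in the others, or 95, 62 and 43 reads. Its log2 fold change was 1.72 by limma (adjusted p = 0.00394) and 3.13 by edgeR. Cdc25c, the phosphatase that removes the brake from Cdk1, was the lowest gene of the set per length. It had 2, 2 and 4 reads in vehicle and 11, 14 and 7 in Chrna4-labelled libraries, and it passed in the fit without a filter (log2 fold change 0.45, limma adjusted p = 0.0340).

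Foxm1, the transcription factor that activates many G2 and mitosis genes, rose from 0.992 ± 0.582 to 2.90 ± 0.373 CPM (mean ± SD of 3 livers each; log2 fold change 1.002, limma adjusted p = 0.0138). Its vehicle replicate 2 stood at 1.66 CPM, above the 0.617 and 0.695 CPM of the other vehicle livers. Nek2, a kinase that separates the centrosomes, rose by 1.05, and Pbk, a kinase active in mitosis, by 1.15 on the log2 scale (limma, adjusted p = 0.0147 and 0.0261). Pbk rested on 1, 12 and 3 reads in the vehicle libraries.

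Aurka and Cks2 belong to the same step and behaved otherwise. Aurka, the kinase of centrosomes and spindle poles, had 3.86, 3.43 and 3.13 CPM in vehicle and 5.69, 4.29 and 4.03 CPM in Chrna4-labelled libraries. The groups did not overlap, but with a log2 fold change of 0.33 (95% interval -0.04 to 0.71) it did not pass (limma, adjusted p = 0.184). Cks2 (chromosome 13, 51645232 to 51650660) had 16.1, 11.0 and 12.958 CPM against 14.8, 12.6 and 13.7 CPM, and its highest value was that of vehicle replicate 1. Its log2 fold change was 0.05 with an interval of -0.30 to 0.40 (limma, adjusted p = 0.859), which leaves room for a change of about the upper bound. In the authors' deposited table the log2 fold changes were 0.43 for Aurka and 0.043 for Cks2, with adjusted p-values of 0.253 and 0.939.

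**Figure D3:**
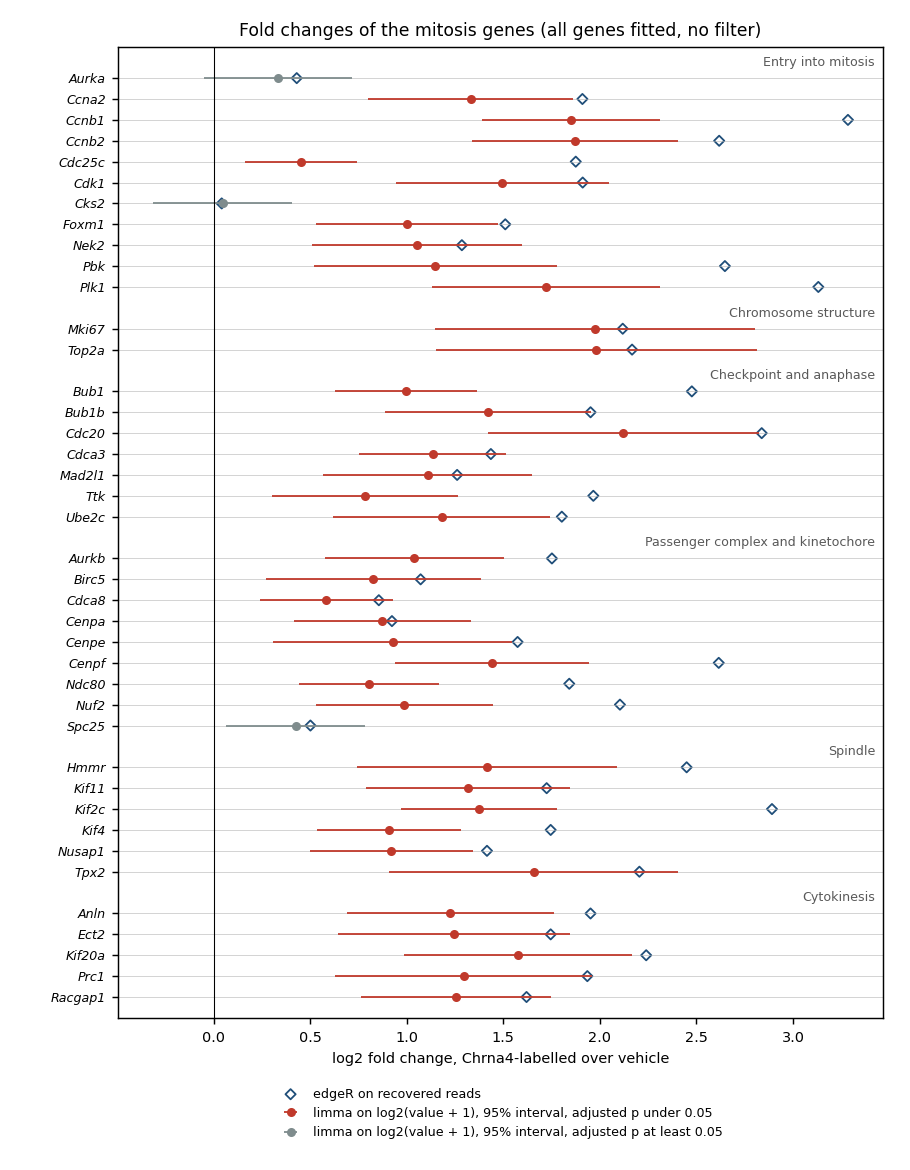
Log2 fold changes, Chrna4-labelled over vehicle, of the 40 mitosis genes with all genes in the table fitted: filled points and lines are limma estimates with 95% intervals, red where the adjusted p was under 0.05 and grey where it was not, and open diamonds are edgeR estimates from recovered reads. The 3 grey genes are Aurka, Cks2 and Spc25, and the diamonds lie farther right for genes with few reads.

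The most used marker of proliferation, Mki67, rose together with Top2a. Mki67 encodes Ki-67, a protein that coats mitotic chromosomes, and had 1.47, 5.58 and 4.42 CPM in vehicle and 22.9, 11.6 and 16.7 CPM in Chrna4-labelled libraries. Top2a, the topoisomerase that untangles sister chromatids, had 0.926, 3.97 and 3.82 CPM and 18.016, 9.79 and 12.8 CPM. Both were lowest in vehicle replicate 1, at well under the other vehicle values, and highest in Chrna4-labelled replicate 1. Their log2 fold changes were 1.98 (95% interval 1.14 to 2.82) and 1.98 (1.14 to 2.82), with adjusted p-values of 0.00678 and 0.00683 by limma. Ratios to Mki67 within a library, chosen after values were seen, were taken for 4 genes. That of Cdk1 was 0.947, 0.452 and 0.427 in vehicle and 0.435, 0.432 and 0.432 in Chrna4-labelled libraries, and that of Top2a was 0.632, 0.712 and 0.865 in vehicle and 0.785, 0.841 and 0.768 in Chrna4-labelled libraries. For Ccnb1 it was 0.158, 0.0769 and 0.124 in vehicle and 0.251, 0.268 and 0.216 in Chrna4-labelled libraries. For Cdc20 it was 0.474, 0.25 and 0.371 in vehicle and 0.629, 0.668 and 0.330 in Chrna4-labelled libraries. Among the Chrna4-labelled livers the ratio was thus nearly even for Cdk1 and uneven for Cdc20, which was low in replicate 3.

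The 7 genes listed under the checkpoint and the start of anaphase, with Cdca3 placed among them, all passed in the fit without a filter. With the filter 5 of 5 passed. Cdc20, the activator of the anaphase-promoting complex (chromosome 4, 118432901 to 118437352), had 0.694, 1.39 and 1.64 CPM in vehicle and 14.4, 7.78 and 5.51 CPM in Chrna4-labelled libraries. It had the largest log2 fold change of the set by limma, 2.12 (95% interval 1.41 to 2.84, adjusted p = 0.00287). The Chrna4-labelled values were spread, with replicate 1 above the sum of replicates 2 and 3, and their SD was 4.64 CPM around a mean of 9.24 (n = 3). Ube2c, the ubiquitin-conjugating enzyme of that complex, had 1.39, 1.18 and 1.14 CPM against 6.75, 3.18 and 3.02 CPM (log2 fold change 1.18, limma adjusted p = 0.0125).

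Among the checkpoint proteins, Bub1b, or BubR1, which inhibits Cdc20, rose from 1.20 ± 0.636 to 4.78 ± 1.10 CPM (mean ± SD, n = 3; log2 fold change 1.42, limma adjusted p = 0.00498). Mad2l1, or Mad2, its partner in that inhibition, had 2.31, 4.83 and 3.87 CPM in vehicle and 11.3, 7.99 and 7.52 CPM in the others (log2 fold change 1.11, limma adjusted p = 0.0115). Bub1, a kinase of the checkpoint, had 2, 8 and 4 reads in vehicle and 35, 23 and 25 in Chrna4-labelled libraries, and Ttk, or Mps1, the kinase that starts the checkpoint, had 1, 8 and 8 and 35, 19 and 15. Both were too low for the filter and passed without it, with log2 fold changes of 0.998 and 0.78 (limma, adjusted p = 0.00382 and 0.0292). Cdca3, a regulator of entry into mitosis, rose by 1.14 on the log2 scale (limma, adjusted p = 0.00271), with narrow groups of 1.93, 2.63 and 2.23 and 7.22, 6.03 and 5.30 CPM.

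The chromosomal passenger complex carries the kinase Aurora B along the chromosomes. Its kinase gene Aurkb rose from 0.728 ± 0.311 to 2.57 ± 0.829 CPM (mean ± SD, n = 3; log2 fold change 1.04, limma adjusted p = 0.0124). Birc5, or survivin, had 1.77, 2.41 and 3.13 CPM in vehicle and 7.57, 4.02 and 4.08 CPM in Chrna4-labelled libraries (log2 fold change 0.83, limma adjusted p = 0.0418). Cdca8, or borealin, had 1.54, 1.82 and 1.44 CPM and 3.17, 3.12 and 2.44 CPM (log2 fold change 0.58, limma adjusted p = 0.0321; DESeq2, 0.0595). Both had smaller log2 fold changes than their kinase, a difference that was not tested.

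Kinetochore genes differed among themselves. Cenpf, a large protein of the outer kinetochore, had 0.386, 0.429 and 0.695 CPM in vehicle and 4.81, 2.49 and 2.33 CPM in Chrna4-labelled libraries (log2 fold change 1.44, limma adjusted p = 0.00451). Cenpe, a kinesin that moves chromosomes to the spindle equator, had 0.617, 1.07 and 1.09 CPM and 4.81, 1.85 and 1.91 CPM (log2 fold change 0.93, limma adjusted p = 0.0474), with replicate 1 far above the other Chrna4-labelled values. Cenpa, the histone that marks the centromere, had 4.40, 5.63 and 8.24 CPM and 11.7, 11.0 and 12.4 CPM (log2 fold change 0.87, limma adjusted p = 0.0143), and here replicate 3 was the highest.

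Ndc80, Nuf2 and Spc25 encode subunits of one complex, which grips microtubules. Nuf2 rose by 0.99 on the log2 scale from 1, 14 and 5 reads in vehicle to 37, 26 and 27 in Chrna4-labelled libraries (limma, adjusted p = 0.0172). Ndc80 passed without the filter (log2 fold change 0.81, limma adjusted p = 0.00888), from 2, 9 and 9 to 30, 20 and 25 reads. Spc25 had 5.79, 5.52 and 5.46 CPM in vehicle and 9.51, 7.20 and 7.05 CPM in Chrna4-labelled libraries, and its log2 fold change of 0.43 (95% interval 0.09 to 0.77) did not pass (limma, adjusted p = 0.0709; 0.50 and 0.0915 in the authors' deposited table). Its vehicle values were the most even of the 40 genes by coefficient of variation, and higher than those of both partners.

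All 6 spindle genes rose. Tpx2, which targets Aurora A to the spindle, had 0.231, 1.39 and 1.79 CPM in vehicle and 7.80, 3.65 and 5.30 CPM in Chrna4-labelled libraries (log2 fold change 1.66, limma adjusted p = 0.00996). Kif11, the motor that pushes the spindle poles apart, had 0.772, 1.56 and 2.13 CPM and 6.34, 4.66 and 4.29 CPM (log2 fold change 1.32, limma adjusted p = 0.00603). Kif2c, a kinesin that takes microtubules apart, had a ratio of means of 7.75, from 0.319 ± 0.101 to 2.48 ± 0.810 CPM (mean ± SD, n = 3; limma, adjusted p = 0.00298). Hmmr, a spindle protein, rose by 1.41, and replicate 1, at 6.34 CPM, was more than the sum of the other Chrna4-labelled values of 2.12 and 2.60. Kif4, a chromosome-bound kinesin, and Nusap1, which bundles spindle microtubules, rose by 0.91 and 0.92. Adjusted p-values of these 3 genes were 0.0134, 0.0119 and 0.0131 (limma).

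The 5 genes of cytokinesis, the last step of division, rose too. Kif20a, a kinesin of the central spindle, had 0.694, 0.644 and 1.74 CPM in vehicle and 7.04, 3.76 and 4.29 CPM in Chrna4-labelled libraries (log2 fold change 1.58, limma adjusted p = 0.00493). Racgap1 and Ect2 together direct the small GTPase RhoA to the cleavage furrow. Racgap1 rose from 1.65 ± 0.695 to 5.22 ± 0.927 CPM and Ect2 from 1.63 ± 0.3495 to 5.52 ± 2.63 CPM (mean ± SD, n = 3; limma, adjusted p = 0.00554 and 0.0124). Prc1, which bundles the microtubules of the midzone, rose by 1.29, and Anln, which links the contractile ring to the membrane, by 1.23 on the log2 scale (limma, adjusted p = 0.0174 and 0.0103). Vehicle replicate 1 was the lowest library for both, at 0.309 CPM.

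The libraries of a group were not alike. The 40 genes summed to 57.9, 80.2 and 80.7 CPM in vehicle replicates 1, 2 and 3 and to 275.6, 169.1 and 180.4 CPM in the Chrna4-labelled ones. As CPM of plain library totals, without the authors' scaling, the sums were 49.4, 73.9 and 72.5 against 314.0, 189.7 and 199.96. Chrna4-labelled replicate 1 held the highest value of its group in 37 of the 40 genes, and vehicle replicate 1 the lowest of its group in 30. Vehicle replicate 1 was also thin, with fewer than 10 reads for 22 of the 40 genes, against 7 in each other vehicle library.

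**Figure D4:**
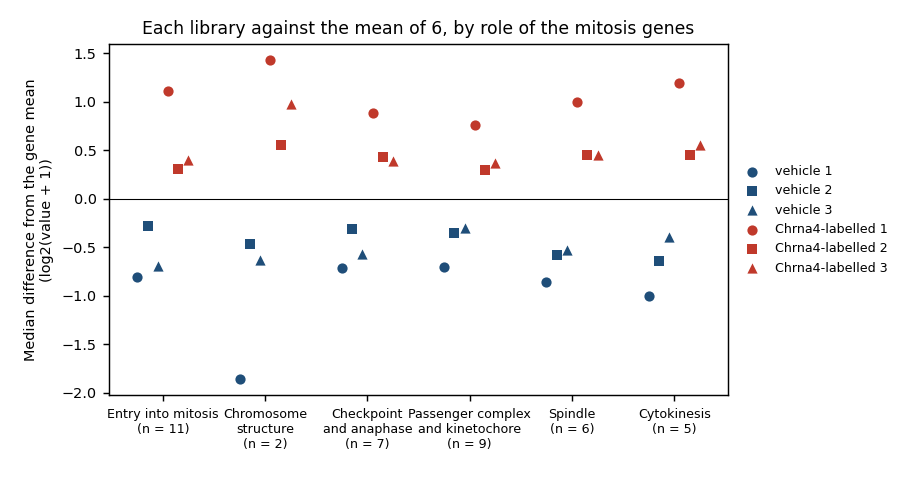
Median over the genes of each role of the difference between a library's log2(value + 1) and the gene's mean over the 6 libraries; blue marks are vehicle, red marks Chrna4-labelled libraries, and n is the number of genes. In each role the 3 red marks lie above 0 and the 3 blue marks below, with the red circle (replicate 1) highest.

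Without Chrna4-labelled replicate 1, 25 of the 36 genes were higher (limma; 9.58% of all genes higher and 5.84% lower), with a median log2 fold change of 1.02. Besides Aurka, Cks2 and Spc25, the genes that then did not pass were Birc5, Cdca8, Cenpa, Cenpe, Foxm1, Nuf2, Pbk and Prc1. Without vehicle replicate 1, 31 were higher (15.8% of all genes higher, 11.7% lower) with a median of 1.06. Without vehicle replicate 2 or 3, 30 were higher in each case (12.6% and 13.4% of all genes higher, 7.22% and 9.93% lower). Without Chrna4-labelled replicate 2 or 3, 27 and 28 were higher (7.82% and 8.93% of all genes higher, 4.10% and 5.08% lower). Without both replicates 1, an alternative added after the data were seen, 27 were higher (14.8% of all genes higher, 11.1% lower) and the median was 0.92. Over the genes tested, Chrna4-labelled replicate 1 differed from the mean of replicates 2 and 3 by a median of 0.64 on the log2 scale for the mitosis genes, by 0.24 for other mitosis genes, by 0.22 for genes of DNA replication and by 0.00454 for all genes. The same difference was -0.05 for macrophage, -0.13 for T and NK cell and -0.12 for hepatocyte markers. It was -0.30 for endothelial, 0.22 for bile duct and -0.19 for erythroid markers. For monocyte and neutrophil markers it was 0.08, for B and plasma cell -0.07 and for stellate cell and fibroblast markers -0.08. Vehicle replicate 1 differed from the mean of vehicle replicates 2 and 3 by -0.40 for the mitosis genes, by -1.26 for macrophage, -0.82 for T and NK cell, 0.66 for erythroid and -0.09 for hepatocyte markers, and by -0.00771 for all genes. For bile duct markers it was -0.46, for endothelial -0.42 and for B and plasma cell markers -0.25. For monocyte and neutrophil markers it was -0.14 and for stellate cell and fibroblast markers -0.11. In that library markers of immune, bile duct and endothelial cells were thus low along with the mitosis genes. The part of these cells in the low values was not tested.

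Levels of different genes can be compared only per length, here CPM per kb of exon in GENCODE M21, counting the exons of all transcripts. On that scale Cks2 was the highest of the 40 genes in all 6 libraries, at 19.3 ± 3.74 in vehicle and 19.8 ± 1.62 in Chrna4-labelled livers (mean ± SD, n = 3). Next in the vehicle livers came Spc25 (1.75 ± 0.0541) and Aurka (1.37 ± 0.145), so the 3 genes that did not pass were the 3 highest per length in vehicle livers. Cenpa followed at 1.04 ± 0.335, with a ratio of means of 1.92. In CPM, without division by length, the vehicle mean of Cenpa (6.09) was above those of Spc25 (5.59) and Aurka (3.47). Those of Mki67 (3.82) and Mad2l1 (3.67) also exceeded that of Aurka, so this order depends on the length used. Per length, Cdc20 (4.95 ± 2.48) and Ccnb2 (4.20 ± 1.42) came after Cks2 in the Chrna4-labelled livers, from 0.665 ± 0.262 and 0.658 ± 0.270 in vehicle. The ratio of means has the vehicle level as its divisor, so a link between level and ratio is partly built in, and it was not tested.

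**Figure D5:**
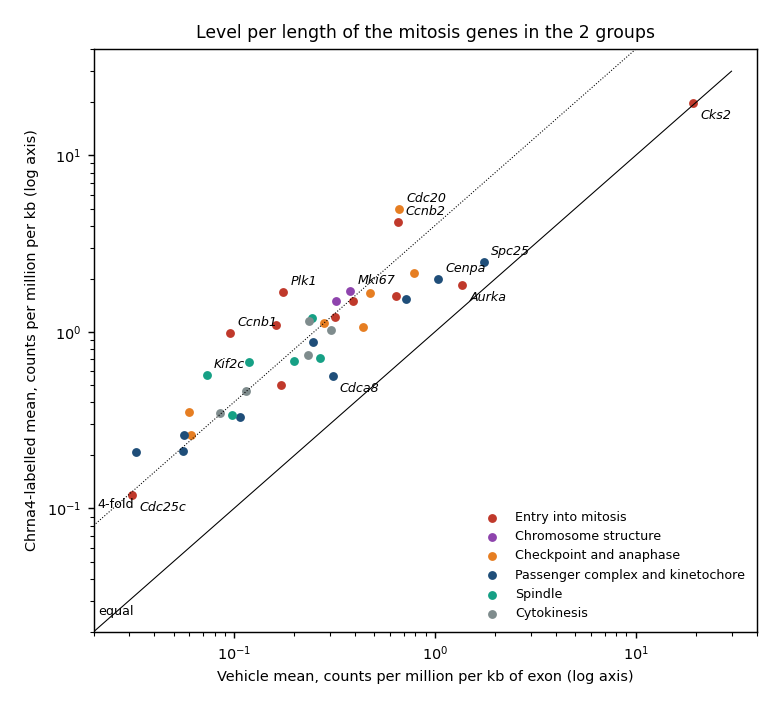
Mean level per length of each mitosis gene in vehicle (x) and Chrna4-labelled livers (y), in CPM per kb of exon on log axes, with colours for roles; the solid line marks equal levels and the dotted line a 4-fold higher one. Cks2 lies on the solid line and Aurka and Spc25 near it, while Ccnb1 and Plk1 lie farthest above the dotted line.

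The exons of 13 of the 40 genes overlap those of another gene in GENCODE M21, and the strand setting of the counting is not known. The overlap was 510 bases or more for 6 genes, Kif20a (with Cdc23), Prc1 (Rccd1), Kif4 (Pdzd11), Cdc25c (Gm3550), Ube2c (Tnnc2) and Ccna2 (Exosc9), each on the opposite strand. For these 6, part of the reads could belong to the neighbour. Cdc23, the partner with the longest overlap, had a log2 fold change of 0.05 (limma, adjusted p = 0.804).

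The promoter matches are set beside the calls as a description, with no test. Of the 30 genes with a promoter entry that passed in the fit without a filter, 23 held a CHR and 23 a CCAAT box. Birc5, Mad2l1, Nuf2 and Nusap1 rose with neither in the window. Of the 3 that did not pass, Aurka and Spc25 held a CHR, and all 3 held a CCAAT box.

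Most calls among other genes of mitosis were in the same direction. For this list and those that follow, the background by limma was 14.2% of all genes tested higher and 10.3% lower. With plain totals these shares were 37.3% and 2.82%, and for fits with no filter or that leave out libraries they are given above. Of 85 further mitosis genes, 62 had a mean of at least 1 CPM, and 33 of these were higher and 1 lower (limma), with a median log2 fold change of 0.70. With plain totals 42 of the 62 were higher and 0 lower. Leaving out Chrna4-labelled replicate 1 gave 22 higher and 0 lower. Psrc1, a spindle protein, had 0.154, 0.375 and 0.348 CPM in vehicle and 3.11, 2.33 and 2.81 CPM in Chrna4-labelled libraries (log2 fold change 1.54, limma adjusted p = 0.00114). Incenp, the scaffold of the passenger complex, had 2.85, 3.16 and 3.43 CPM and 9.04, 6.88 and 7.10 CPM (log2 fold change 1.06, limma adjusted p = 0.00269). The gene that fell was Pttg1, or securin, the inhibitor of separase that Cdc20 helps to destroy. It had 24.9, 25.7 and 24.8 CPM in vehicle and 19.5, 19.5 and 17.963 CPM in the others, with no overlap and narrow groups (log2 fold change -0.39, limma adjusted p = 0.0242). With plain library totals its log2 fold change was -0.065 and it did not pass (limma, adjusted p = 0.638), so its fall is relative to the authors' scaling.

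Of 16 subunits and regulators of the anaphase-promoting complex (without Cdc20 and Ube2c), 0 were higher and 0 lower (limma, adjusted p under 0.05). Their median log2 fold change was 0.026, and with plain totals 5 were higher, against 37.3% of all genes tested. At an unadjusted p under 0.05 there were 1 of the 16 by limma, and at an adjusted p under 0.05 by edgeR 0. DESeq2, and limma without vehicle replicate 3, each called 1 lower. Cdc27, a subunit chosen after its values were seen, was at 31.0 ± 3.13 and 31.1 ± 3.58 CPM (mean ± SD of 3 livers each). Of 19 tested genes of MuvB, E2F and the retinoblastoma family, which control the timing of this program, 4 were higher and 0 lower, with a median of 0.097, and 10 were higher with plain totals. Without vehicle replicate 3, or without any 1 of the Chrna4-labelled replicates, 2 were higher, and without vehicle replicate 1 there were 3 higher and 1 lower. Rbl1, or p107, rose by 1.36 and E2f2, an activating E2F, by 0.95 (limma, adjusted p = 0.00683 and 0.00612). The MuvB subunits Lin9 and Lin54, chosen after their values were seen, had log2 fold changes of -0.00527 and 0.14 (limma, adjusted p = 0.989 and 0.478).

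Calls among genes of the phases before mitosis were mostly higher, and the 2 lower ones, both of DNA replication, did not pass with plain totals. Of 47 tested genes of DNA replication and S phase, 19 were higher and 2 lower, with a median log2 fold change of 0.33, and 35 and 0 with plain totals. Dnmt1, which copies DNA methylation, and Pold3, a polymerase delta subunit, rose by 0.88 and 0.73 (limma, adjusted p = 0.00157 and 0.00339). Tk1, thymidine kinase, and Mcm10, a replication factor, had log2 fold changes of -0.45 and -0.68 (limma, adjusted p = 0.0159 and 0.0187); with plain totals these were -0.12 and -0.35, and neither passed (adjusted p = 0.358 and 0.140). Without Chrna4-labelled replicates 1, 2 and 3 in turn, 6, 8 and 10 of the 47 were higher and 1, 0 and 1 lower. Of 14 tested cyclins, kinases and inhibitors of G1, 5 were higher and 0 lower, with a median of 0.32, and 10 were higher with plain totals. Without Chrna4-labelled replicates 1, 2 and 3 in turn, 3, 2 and 2 were higher. Ccne1, a cyclin of the entry into S phase, rose by 0.84, and Cdkn2c, an inhibitor of Cdk4 and Cdk6, by 0.83 (limma, adjusted p = 0.0111 and 0.00447). Cdkn1a, or p21, an inhibitor of cyclin-dependent kinases, and the cyclin gene Ccnd1, both named after their values were seen, rose by 2.11 and 1.32 (limma, adjusted p = 0.0448 and 0.0195). Without vehicle replicate 1 no tested gene of this G1 list rose by more than 1.25, so the estimate for Cdkn1a was smaller there. No difference between these lists was tested.

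Markers of several cell types moved in the same libraries, and their part in the rise of mitosis genes was not tested. Macrophage markers were higher in 6 of 10 and lower in 1, with sums of 249.5 to 654 CPM for vehicle against 873 to 947 CPM; Gpnmb and Trem2 rose by 4.41 and 2.36, and Timd4 fell (log2 fold change -2.78). Leaving out Chrna4-labelled replicates 1, 2 and 3 in turn gave 4, 3 and 3 higher, and leaving out vehicle replicate 1 gave 6 higher and 4 lower. Markers of monocytes and neutrophils were higher in 6 of 6 tested, with sums of 10.8 to 16.3 CPM for vehicle against 53.1 to 59.0 CPM; Itgax and Ccr2 rose by 2.68 and 1.75. Those of T and NK cells were higher in 6 of 8 tested, with sums of 6.94 to 20.1 CPM for vehicle against 40.2 to 51.8 CPM; Gzma and Nkg7 rose by 2.70 and 1.46. Without any 1 of the Chrna4-labelled libraries, 3 of the 8 were higher. B and plasma cell markers were higher in 3 of 6 tested (6 with plain totals), with sums of 6.94 to 12.6 CPM for vehicle against 31.8 to 48.0 CPM; Jchain and Mzb1 rose by 2.70 and 1.16.

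Of 10 stellate cell and fibroblast markers 6 were higher, with sums of 198 to 222 CPM for vehicle against 593 to 647 CPM; Col1a1 and Col1a2 rose by 3.31 and 2.52. Bile duct markers were higher in 1 of 3 tested (0 without vehicle replicate 2 or Chrna4-labelled replicate 1 or 3), Sox9 (0.90), with sums of 61.9 to 86.7 CPM for vehicle against 69.3 to 95.4 CPM. Endothelial markers had 1 of 10 higher (3 with plain totals), Lyve1 (1.38), and 1 lower, Clec4g (-0.41, not called with plain totals), with sums of 419.6 to 506 CPM for vehicle against 418 to 554 CPM. Endothelial counts changed when 1 library was left out: 1 higher and 2 lower without vehicle replicate 1, 2 and 1 without vehicle replicate 3 or Chrna4-labelled replicate 1, 0 and 0 without Chrna4-labelled replicate 2, and 0 and 1 without replicate 3. Hepatocyte markers had 3 of 10 lower and 0 higher (6 lower without vehicle replicate 1), among them Serpina1c (-1.18) and Ttr (-0.84). Their sums were 84219.9 to 95799 CPM for vehicle against 71386 to 79731 CPM, on the authors' scaling. With plain totals 2 of the 10 were lower and 0 higher. Their median log2 fold change was then -0.033, against -0.37 with the authors' scaling. Erythroid markers had 2 of 8 tested lower, Alas2 (-0.77) and Klf1 (-0.92), and 0 higher (1 lower without Chrna4-labelled replicate 1 or 2). Their sums were 269 to 394 CPM for vehicle against 229 to 294 CPM. No marker of these lists in the table was at 0 in all libraries, and hepatocyte markers had by far the largest sums, as the label of liver implies. The log2 fold changes and calls in both paragraphs are by limma, except where edgeR is named.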

How the data were processed

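PolyA+ RNA of 6 mouse livers was sequenced as paired reads of 150 bases, per the labels' protocols. The submitters' processing notes name TopHat2, HTSeq, mm10 and GRCm38 without roles, and no version, annotation or strand setting is known. The deposited signal values are gene counts divided by a library total that the authors scaled (CPM). Dividing each library by its smallest value above 0 gave whole reads within 0.01 for 100% of values, so counts were recovered from the deposited values. The authors' deposited table also holds log2 fold changes and p-values of its own, which are quoted only where named.

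The column names give each library a liver number of its own, and replicate libraries differed by more than sampling noise. Genes with a mean of at least 1 CPM (12099 of 14492) were tested on log2(value + 1) with limma 3.58.1 in R 4.3.3, with Benjamini-Hochberg adjustment over all of them and a threshold of 0.05. The limma and edgeR fits were tested on simulated data. Alternatives were a pseudocount of 0.25, no filter, plain library totals, edgeR 4.0.16 and DESeq2 1.42.0 on the recovered reads, and leaving out each library. EdgeR with no filter, and leaving out both replicates 1, were added after seeing the data. Exon lengths and coordinates came from GENCODE M21 (GRCm38) and promoters from RefSeq (GRCm38.p6), where 33 of the 40 genes matched by symbol. Ccna2, Cdc25c, Aurkb, Kif20a, Tpx2, Foxm1 and Pbk had no promoter entry.

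The mitosis genes and the other lists were chosen with earlier results of these data known. All mitosis genes are accounted for, and of each other list the 2 genes with the lowest p among those past the threshold in each direction are named. Libraries held 14959338 to 22440334 reads, and mitosis genes had as few as 1 read in a vehicle library.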

Additional observations from a re-analysis of the deposited data

How the results depend on the processing

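With 3 livers a group and as few as 1 read per gene in vehicle replicate 1, the size of the fold changes is less firm than their direction. The count of mitosis genes higher, 33, ranged from 25 to 31 when 1 library was left out, and 0 were lower in each of these fits. The median log2 fold change of the mitosis genes, 1.24, was 1.69 with a pseudocount of 0.25, 1.86 with edgeR, 1.84 with DESeq2 and 1.89 with edgeR and no filter. It ranged from 1.02 to 1.33 when 1 library was left out. A smaller pseudocount shrinks low genes less by construction. Genes called over the whole table numbered 2962 in the reported fit, 4852 with plain library totals and 1442 to 3331 when 1 library was left out, with 1866, 1442 and 1696 without Chrna4-labelled replicates 1, 2 and 3. For Chrna4, which was not called, the log2 fold change of 0.0069 changed sign with edgeR (-0.082, also with no filter), DESeq2 (-0.087) and without both replicates 1 (-0.39), and ranged from -0.30 to 0.27 when 1 library was left out. For Cks2, also not called, it ranged from -0.075 to 0.18, being -0.075 without vehicle replicate 2 and -0.0083 without Chrna4-labelled replicate 1. The cause of these changes of sign was not tested. Over all alternatives and mitosis genes, 434 values kept their direction and their side of the threshold, 34 kept the direction but no longer passed, 2 passed newly (Aurka and Spc25, with plain totals) and 2 changed sign (Cks2). Cenpe and Cdca8 no longer passed in 6 and 5 of the 6 fits that leave out 1 library, and Birc5 in 5. No paired analysis was possible because each liver has a number of its own and the groups share none.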
